A study of Rattus norvegicus with 15 samples.

Results

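Proximal tubules isolated from rat kidneys after an injection of 10 mg/kg cisplatin were compared with proximal tubules after saline. The comparison rests on 6 of the 15 arrays of the series, 3 for each condition, which were chosen by tissue and dose as the sample labels give them. The 5 groups, each with 3 arrays, were proximal tubules at 10 mg/kg, proximal tubules at 2 mg/kg, proximal tubules after saline, whole kidneys at 10 mg/kg and whole kidneys after saline. All animals were male Wistar/ST rats aged 8 weeks, cisplatin or an equal volume of saline went into the peritoneal cavity, and the labels list no genetic change in any group. Digoxigenin-labelled cRNA from total RNA was measured on a 1-colour chemiluminescent array, the Rat Genome Survey Microarray. The labels give neither the time between injection and sampling nor the animal behind each array, so the p-values below measure the spread between arrays, which may be technical.

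Cisplatin is a platinum drug that forms adducts with DNA and blocks its replication and transcription. Proximal tubule cells take it up through basolateral transporters, and injury to them limits the dose patients can receive. These cells recover most of the filtered glucose, amino acids, phosphate and bicarbonate, secrete organic ions, make glucose from lactate and amino acids, and draw their energy largely from the oxidation of fatty acids. After acute injury surviving tubule cells are known to lose parts of this transport and metabolic programme and to express injury proteins such as kidney injury molecule 1.

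Each array file held a linear signal for 26357 to 26546 probes in these 6 arrays, with medians between 226 and 470. After a log2 transform the arrays were quantile normalized, and all values below are on that log2 scale unless a fold is stated. Correlations over probes ran between 0.886 and 0.921 among the 10 mg/kg arrays, between 0.917 and 0.929 among the saline arrays and between 0.849 and 0.905 across the conditions. The median SD of a probe over its 3 arrays was 0.53 at 10 mg/kg and 0.47 after saline. Only 401 of the 26857 probes could be given 1 gene symbol, all of them within a table of 1219 probes that the authors chose by a rule not given in the sources used here, so counts over named genes are no independent evidence of a direction. Since no file reports a background level, a low signal is not known to lie above background and a fold is a ratio of signals. RNA was taken from bulk tissue, and fewer cells of a kind cannot be told apart from less RNA per cell.

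The tubules changed broadly at 10 mg/kg. In a limma fit over all 15 arrays 1553 of 26601 tested probes passed a Benjamini-Hochberg adjusted p of 0.05, which is 5.84% of them, with 659 higher (2.48%) and 894 lower (3.36%). Among the higher probes 259 exceeded 4-fold, 85 exceeded 8-fold and 31 exceeded 16-fold. The lower probes held 397 past 4-fold, 96 past 8-fold and 19 past 16-fold. The median change was 1.73 among the called rises and -1.92 among the called falls. Of the 401 named genes 41 rose (10.2%) and 187 fell (46.6%), 56.9% in all, and the median named gene stood at -1.28 where the median tested probe stood at 0.03. The conditions did not overlap in any array for 22.5% of all tested probes and 78.6% of named genes. Among called named genes this held for all 41 that rose and 186 of the 187 that fell, so it adds little to a call. The split between rises and falls moved with the scaling, to 341 higher and 737 lower when arrays were only centred on their medians and to 129 higher and 788 lower on unscaled signals, whose median tested probe lay at -0.32. In a fit of the 6 compared arrays alone 244 were higher and 348 lower, and without saline replicate 3 the fit called 953.

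**Figure D1:**
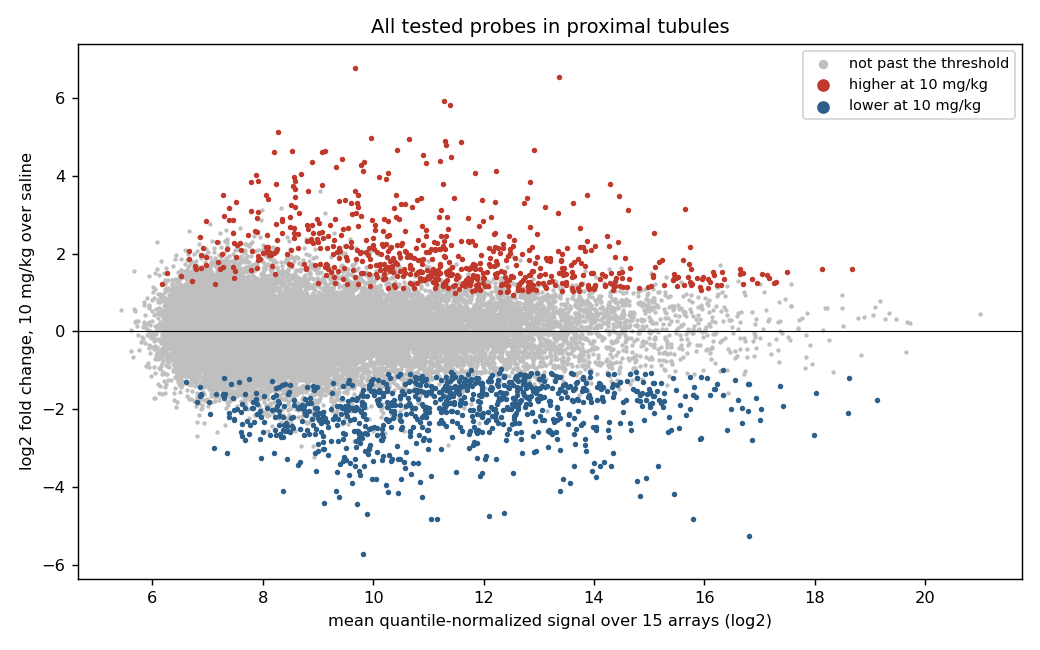
Each point is a tested probe, with its mean log2 signal over the 15 arrays on the horizontal axis and the log2 difference of 10 mg/kg cisplatin minus saline on the vertical axis, and colours mark probes past the adjusted p of 0.05. Called probes lie mostly among the bright ones: 16.6% of the brightest of 4 equal groups were called and 0.346% of the dimmest.

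Calls gathered among the bright probes, as the plot of difference against signal shows. In the dimmest of 4 equal groups of probes 15 were higher and 8 lower, against 466 higher and 636 lower in the brightest. The spread followed the same order at its ends, with a median residual SD of 0.73 in the dimmest group and 0.35 in the brightest. Named genes were bright as well, with 280 of 401 in the brightest group and 3 in the dimmest. Most called probes carry no gene name here, 618 of the higher and 707 of the lower. The largest rise of all was in such a probe, number 21689204, which read 13.57, 13.32 and 13.95 at 10 mg/kg against 6.65, 6.08 and 7.82 after saline. The deepest fall was in probe 21755193, which read 6.63, 5.62 and 7.75 at 10 mg/kg against 11.98, 13.44 and 11.77 after saline.

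The 3 arrays at 10 mg/kg did not move equally far. Replicate 2 lay farthest from the saline mean for 101 of the 187 named genes that fell, replicate 3 for 44 and replicate 1 for 42. Its median distance over these genes was -2.18, beside -1.93 in replicate 3 and -1.80 in replicate 1. For the 41 named genes that rose replicate 2 was farthest in 18, replicate 3 in 17 and replicate 1 in 6, with medians of 2.59, 2.83 and 2.69. Replicate 2 also had the lowest mean correlation with its own group, 0.889, beside 0.907 in replicate 1 and 0.903 in replicate 3. Without replicate 2 the fit called 1037 probes, beside 1173 without replicate 1 and 1098 without replicate 3. Leaving out 1 saline array gave between 953 and 1154.

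**Figure D2:**
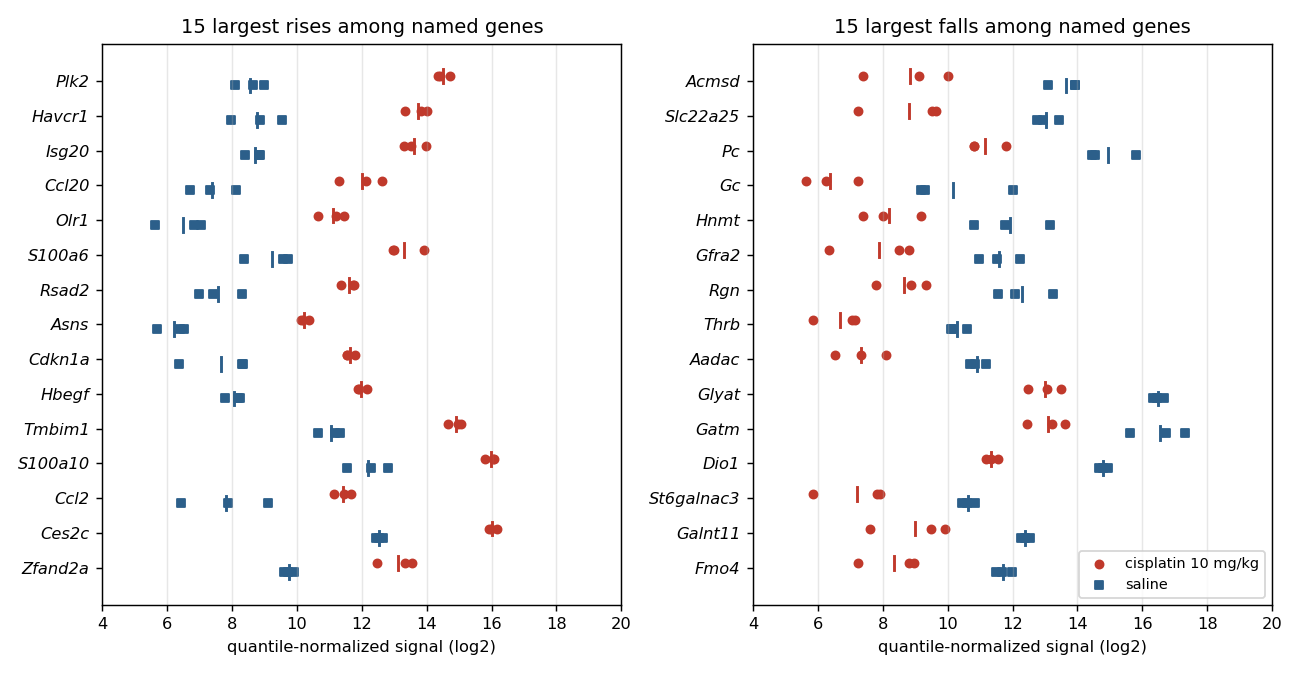
Quantile-normalized log2 signal of the 15 named genes with the largest rises (left) and the 15 with the largest falls (right). Red circles are the 3 arrays at 10 mg/kg cisplatin, blue squares the 3 saline arrays and the short bars the means of each condition. Genes were chosen among those whose conditions do not overlap, so no red point can lie inside the range of the blue points. Of all named genes 78.6% had no overlap.

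Of the 22 genes listed as p53 targets 3 had a named probe, of which 2 rose and 1 did not pass, with a median log2 difference of 3.97. Over all named genes 10.2% rose. Plk2, a polo-like kinase gene that p53 switches on, read 14.40, 14.36 and 14.71 at 10 mg/kg against 8.98, 8.09 and 8.63 after saline. Cdkn1a, which encodes the cyclin-dependent kinase inhibitor p21 and is a direct p53 target, read 11.55, 11.55 and 11.80 at 10 mg/kg against 8.29, 6.36 and 8.32 after saline. Neither gene had overlapping conditions, and 78.6% of all named genes had none. The treated arrays lay close together in both, while saline replicate 2 was the lowest reading for both. Plk2 rose 60.7-fold (log2 difference 5.92 ± 0.56, SE, 3 arrays in each condition, limma adjusted p = 5.73e-05) and Cdkn1a 15.7-fold (3.97 ± 0.57, limma adjusted p = 0.000963). Without saline replicate 2 the difference of Cdkn1a was 3.31. The remaining named p53 target, the tetraspanin gene Cd82, stood at -1.02 ± 0.29 and missed the threshold (limma adjusted p = 0.0511). Among named genes of the cell cycle and DNA repair list Fhit, a nucleotide hydrolase gene with tumour suppressor activity, was the one present, and it fell by 2.61 ± 0.53 (limma adjusted p = 0.00859). Fhit did not pass in a fit of the 6 compared arrays alone, called the 6-array fit below (-2.70, limma adjusted p = 0.0545), and stood at -3.25 without treated replicate 3.

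Of 6 named markers of tubular injury 5 rose and 1 did not pass, with a median of 3.22, where 10.2% of all named genes rose. Anxa2, S100a6 and Anxa1 are among the 6 and are counted again in the S100 and annexin group below. Havcr1 encodes kidney injury molecule 1, a phosphatidylserine receptor that lets tubule cells engulf dying neighbours. It read 13.82, 13.34 and 14.00 at 10 mg/kg against 8.85, 9.52 and 7.97 after saline. The lowest treated array lay far above the highest saline array. Lcn2 encodes the iron-siderophore carrier lipocalin 2 and read 10.31, 10.06 and 11.79 at 10 mg/kg against 8.22, 8.08 and 6.77 after saline. Spp1 encodes osteopontin, a secreted phosphoprotein that binds integrins, and read 15.21, 17.33 and 17.86 at 10 mg/kg against 13.47, 14.23 and 13.28 after saline. Replicate 1 was the lowest treated array for Spp1 and yet lay above all saline arrays. The rises were 4.94 ± 0.41 for Havcr1 (limma adjusted p = 1.61e-05), 3.03 ± 0.51 for Lcn2 (limma adjusted p = 0.00256) and 3.14 ± 0.58 for Spp1 (limma adjusted p = 0.005). In the 6-array fit Spp1 did not pass (3.11, limma adjusted p = 0.0592), and without treated replicate 1 it stood at 3.95.

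The S100 proteins bind calcium, and several pair with annexins at membranes. S100a10 and Anxa2 encode the subunits of 1 such complex. S100a10 read 15.80, 16.09 and 16.06 at 10 mg/kg against 12.79, 12.28 and 11.54 after saline, and Anxa2 read 15.14, 14.71 and 15.06 at 10 mg/kg against 11.32, 12.67 and 11.02 after saline. The conditions did not overlap for either gene, as for 78.6% of all named genes. In the saline arrays S100a10 was highest in replicate 1 and Anxa2 in replicate 2. S100a10 rose by 3.78 ± 0.38 (limma adjusted p = 8.64e-05) and Anxa2 by 3.30 ± 0.40 (limma adjusted p = 0.000306). S100a6, which encodes calcyclin, rose by 4.07 ± 0.51 and S100a11 by 2.49 ± 0.44 (limma adjusted p = 0.000346 and 0.00365). On unscaled signals (1.87, limma adjusted p = 0.114) and in the 6-array fit (2.52, limma adjusted p = 0.0518) S100a11 missed the threshold. Anxa1, an anti-inflammatory annexin gene, stood at 0.80 ± 0.42 and S100a4, linked to fibroblast and invasive phenotypes, at 0.27 ± 0.38 (limma adjusted p = 0.388 and 0.838). S100a4 turned to -0.32 on unscaled signals and to -0.18 without saline replicate 3. Thus 4 of the 6 named members rose, with a median of 2.89 over the 6, where 10.2% of all named genes rose.

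All 4 named interferon-stimulated genes rose, with a median of 3.38, where 10.2% of all named genes rose. Isg20 encodes an exonuclease that degrades viral RNA and read 13.30, 13.52 and 13.97 at 10 mg/kg against 8.40, 8.82 and 8.86 after saline. Rsad2 encodes viperin, an antiviral radical SAM enzyme, and read 11.35, 11.77 and 11.73 at 10 mg/kg against 6.99, 7.42 and 8.30 after saline. Irf1, a transcription factor gene of the interferon response, read 11.40, 11.24 and 11.49 at 10 mg/kg against 8.58, 9.10 and 8.28 after saline. Isg20 rose by 4.90 ± 0.43, Rsad2 by 4.05 ± 0.56 and Irf1 by 2.72 ± 0.36 (limma adjusted p = 2.88e-05, 0.000684 and 0.000487). The conditions stood apart for all 3, as for 78.6% of all named genes. Oasl, a gene of the oligoadenylate synthetase family, rose by 1.95 ± 0.47 (limma adjusted p = 0.0249). Its call was lost without saline replicate 1 (1.90) or 3 (1.77) and without treated replicate 2 (2.07) or 3 (1.66), at limma adjusted p between 0.0561 and 0.104. Unscaled signals (1.66, limma adjusted p = 0.172) and the 6-array fit (2.03, limma adjusted p = 0.0539) ended it as well.

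The 3 named chemokines all rose, with a median of 3.61, beside 10.2% of all named genes that rose. Ccl20, which attracts cells bearing CCR6, read 12.12, 12.62 and 11.30 at 10 mg/kg against 7.33, 8.12 and 6.71 after saline. Ccl2, which attracts monocytes, read 11.45, 11.66 and 11.13 at 10 mg/kg against 7.89, 9.10 and 6.43 after saline. Cxcl2, which attracts neutrophils, read 10.85, 10.85 and 10.43 at 10 mg/kg against 9.16, 6.27 and 7.60 after saline. Treated arrays were close together for Ccl2 and Cxcl2, while their saline arrays spread widely. Ccl20 rose by 4.63 ± 0.59, Ccl2 by 3.61 ± 0.81 and Cxcl2 by 3.04 ± 0.64 (limma adjusted p = 0.000715, 0.0165 and 0.0109). The call of Ccl2 ended without saline replicate 3 (2.92, limma adjusted p = 0.0850) and without treated replicate 2 (3.52, limma adjusted p = 0.0621), and that of Cxcl2 in the 6-array fit (3.14, limma adjusted p = 0.0627). Without saline replicate 2 Ccl2 stood at 4.23 and Cxcl2 at 2.32, and without saline replicate 1 Cxcl2 stood at 3.73. Beside these rises the named leukocyte markers, the complement genes C1qa and C1qc that macrophages express, stood at 1.11 ± 0.40 and 0.94 ± 0.43 and neither passed (limma adjusted p = 0.153 and 0.292). C1qa read 12.66, 13.80 and 12.67 at 10 mg/kg against 12.30, 12.15 and 11.35 after saline, highest in treated replicate 2. These 2 are the named ones of 24 markers listed, and the part of leukocytes in the rises was not tested.

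Promoter sequences show which of these genes carry a listed motif close to their start. Sequences of the 250 bases before the annotated start came from RefSeq, assembly GRCr8, and were found for 329 of the 401 named genes, of which 35 rose, 154 fell and 140 did neither. The interferon-stimulated response element was searched on both strands as GAAA, any 2 bases and GAAA again, and lay in 2 of the 35 genes that rose, Isg20 and Rsad2, which is 5.71%. It lay in 1.30% of the genes that fell, 2.14% of those that did neither and 3.29% of all 27457 promoters. The NF-kB consensus lay in 6 of the 35 that rose, or 17.1%, against 1.95% of those that fell, 2.86% of those that did neither and 3.52% of all promoters. The 6 were Ccl20, Cxcl2, Lcn2, Irf1, Oasl and Nfkb2. Nfkb2 encodes an NF-kB subunit precursor, was picked out here after its values were seen and rose by 1.83 ± 0.29 (limma adjusted p = 0.00167). A match is a run of letters and not a measured binding site. The promoters of the leading interferon and NF-kB motif carriers follow, 5′ to 3′ on the strand of the gene, with the motif in capitals, so that its letters and surroundings can be seen.
Isg20, chr1:142239809-142240058 (GRCr8, plus strand): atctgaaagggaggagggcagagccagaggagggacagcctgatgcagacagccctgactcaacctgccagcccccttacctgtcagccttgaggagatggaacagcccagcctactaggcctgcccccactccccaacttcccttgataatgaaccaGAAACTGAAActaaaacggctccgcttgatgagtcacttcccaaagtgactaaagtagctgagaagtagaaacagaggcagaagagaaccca
Rsad2, chr6:48788121-48788370 (GRCr8, minus strand): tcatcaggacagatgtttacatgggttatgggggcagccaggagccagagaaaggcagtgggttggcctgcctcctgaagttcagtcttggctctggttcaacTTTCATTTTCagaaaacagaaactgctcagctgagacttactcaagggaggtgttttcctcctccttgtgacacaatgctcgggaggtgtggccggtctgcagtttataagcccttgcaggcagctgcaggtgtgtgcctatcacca
Ccl20, chr9:91836909-91837158 (GRCr8, plus strand): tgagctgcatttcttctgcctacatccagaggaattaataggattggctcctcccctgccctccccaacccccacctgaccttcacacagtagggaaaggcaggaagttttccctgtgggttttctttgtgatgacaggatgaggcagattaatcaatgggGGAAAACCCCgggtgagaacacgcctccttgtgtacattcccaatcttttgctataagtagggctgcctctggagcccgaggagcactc
Cxcl2, chr14:17467256-17467505 (GRCr8, minus strand): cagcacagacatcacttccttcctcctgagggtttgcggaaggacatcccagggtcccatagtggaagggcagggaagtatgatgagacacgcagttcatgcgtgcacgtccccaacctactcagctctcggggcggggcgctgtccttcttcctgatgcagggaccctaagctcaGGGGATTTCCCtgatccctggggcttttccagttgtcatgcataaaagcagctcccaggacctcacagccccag
Lcn2, chr3:36081781-36082030 (GRCr8, minus strand): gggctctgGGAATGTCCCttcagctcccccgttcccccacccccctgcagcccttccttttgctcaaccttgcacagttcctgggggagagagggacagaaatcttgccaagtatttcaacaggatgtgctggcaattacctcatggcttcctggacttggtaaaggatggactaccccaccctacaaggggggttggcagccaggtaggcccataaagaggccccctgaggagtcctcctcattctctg

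The motif stood 92 bases before the start in Isg20 and 147 before it in Rsad2. In Ccl20 it began 89 bases before the start, in Lcn2 242, and Cxcl2 held 2 overlapping matches within the capitals shown, the first of them 74 bases before the start. Odf2, Cdkn1a and Ces2c were the genes that rose with a p53 half-site in this window, 8.57% of the 35, beside 5.19% of those that fell, 10% of those that did neither and 6.56% of all promoters. Odf2, a centrosome gene, was picked out after its values were seen. The AP-1 motif TGANTCA lay in 14.3% of the genes that rose, 5.19% of those that fell, 7.86% of those that did neither and 6.36% of all promoters. Isg20, Olr1, Zfand2a, Anxa2 and Nfkb2 were the 5 that rose with it. The core of the amino acid response element, TGATG followed after 1 base of any kind by AA, lay in 2.86% of the genes that rose, 1.95% of those that fell, 2.86% of those that did neither and 3.27% of all promoters. Rasl11b was the 1 gene that rose with it, and is named here for that match alone.

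**Figure D3:**
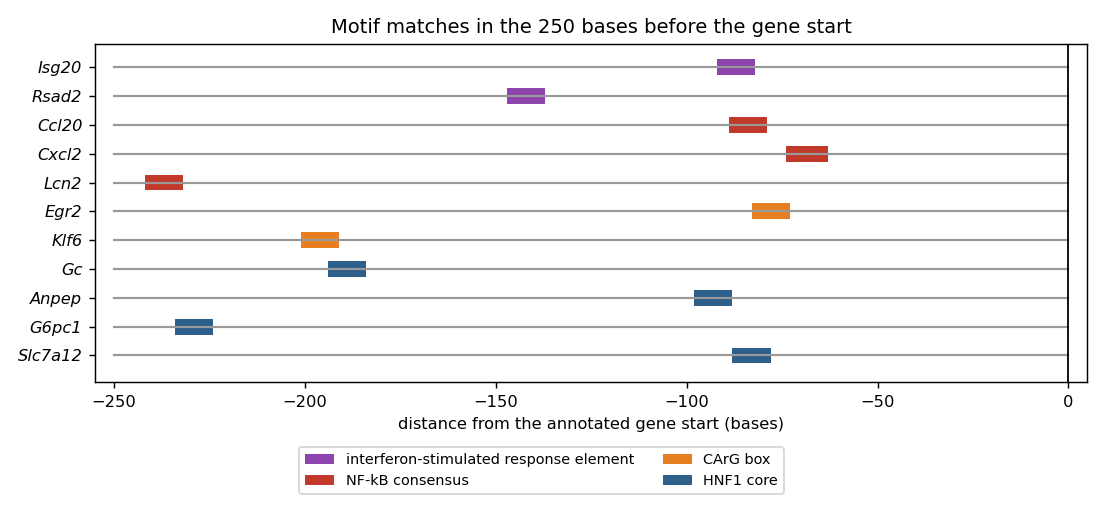
Positions of motif matches (coloured boxes) in the 250 bases before the annotated start (position 0, vertical line) of 11 named genes, with distance in bases on the horizontal axis. Genes were chosen by direction. Interferon, NF-kB and CArG boxes were drawn only for genes that rose and HNF1 boxes only for genes that fell. Genes that fell and carry the interferon, NF-kB or CArG motif, such as Slc34a3, are not drawn. Most boxes lie at different distances from the start.

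Of 3 named immediate early genes 2 rose, where 10.2% of all named genes did. Klf6, a zinc-finger factor gene induced early after tubular injury, read 13.64, 13.07 and 13.00 at 10 mg/kg against 10.72, 11.27 and 10.76 after saline. Egr2 read 9.54, 10.06 and 9.48 at 10 mg/kg against 8.53, 5.87 and 6.17 after saline, with 1 saline array close to the treated ones. Klf6 rose by 2.32 ± 0.30 (limma adjusted p = 0.000443) but not on unscaled signals (1.69, limma adjusted p = 0.173). Egr2 rose by 2.84 ± 0.72 (limma adjusted p = 0.0325), and the call ended without saline replicate 2 (2.33) or 3 (2.48) and without treated replicate 1 (2.89), 2 (2.69) or 3 (2.95), at limma adjusted p between 0.0728 and 0.140. Unscaled signals (2.43), the 6-array fit (2.93) and array weights (2.61) ended it too, at limma adjusted p between 0.0573 and 0.160, while without saline replicate 1 it stood at 3.62. Ier3 stood at 1.26 ± 0.37 (limma adjusted p = 0.0631). The CArG box, the serum response factor motif, lay in the promoters of Egr2 and Klf6 among the 35 genes that rose, against 0.649% of those that fell, 0.714% of those that did neither and 1.50% of all promoters. It is shown in capitals in the promoter of Klf6.
Klf6, chr17:69458479-69458728 (GRCr8, minus strand): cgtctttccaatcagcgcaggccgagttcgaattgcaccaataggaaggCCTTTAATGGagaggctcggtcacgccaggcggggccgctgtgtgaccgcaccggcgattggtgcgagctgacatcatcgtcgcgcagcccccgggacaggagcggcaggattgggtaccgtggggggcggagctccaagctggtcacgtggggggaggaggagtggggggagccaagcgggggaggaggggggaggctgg

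Growth signals between cells went both ways. Hbegf, the heparin-binding ligand of the epidermal growth factor receptor, read 12.16, 11.87 and 11.92 at 10 mg/kg against 7.78, 8.19 and 8.24 after saline. Pdgfa, a ligand of platelet-derived growth factor receptors, read 13.71, 14.31 and 14.38 at 10 mg/kg against 12.14, 12.49 and 12.33 after saline. Both were clear of their saline ranges, Hbegf with a rise of 3.92 ± 0.41 and Pdgfa with 1.82 ± 0.33 (limma adjusted p = 0.000133 and 0.00423). Of all named genes 78.6% had no overlap. Pdgfa did not pass on median-centred signals (1.51, limma adjusted p = 0.0627), on unscaled signals (1.12, limma adjusted p = 0.468) or in the 6-array fit (1.80, limma adjusted p = 0.0517). Guca2b, the uroguanylin gene, fell by 2.55 ± 0.39 and Gfra2, a receptor gene for neurturin, by 3.70 ± 0.70 (limma adjusted p = 0.00136 and 0.00596), with Gfra2 at -2.95 without treated replicate 2. Nrg1, the neuregulin gene, and Guca2a, the guanylin gene, stood at 1.50 ± 0.49 and 0.63 ± 0.44 (limma adjusted p = 0.107 and 0.574). The tumour necrosis factor receptor gene Tnfrsf1a rose by 1.84 ± 0.28 (limma adjusted p = 0.00137), though neither on median-centred signals (1.53, limma adjusted p = 0.0627) nor on unscaled ones (1.14, limma adjusted p = 0.466). Aifm1, which encodes the mitochondrial flavoprotein apoptosis-inducing factor, fell by 1.47 ± 0.30 (limma adjusted p = 0.0087), and this call ended in the 6-array fit (-1.45, limma adjusted p = 0.104).

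Stress genes moved both ways. Asns, the asparagine synthetase gene that the integrated stress response induces, read 10.36, 10.12 and 10.20 at 10 mg/kg against 6.41, 5.68 and 6.52 after saline, and rose by 4.02 ± 0.45 (limma adjusted p = 0.000214). Psat1, an enzyme gene of serine synthesis that shares this induction, read 12.95, 11.66 and 12.26 at 10 mg/kg against 14.77, 14.61 and 15.21 after saline, and fell by 2.57 ± 0.35 (limma adjusted p = 0.000627). The ranges stood apart in both genes, in opposite directions, beside 78.6% of all named genes without overlap. The chaperone genes Hyou1 and Hsph1 stood at -0.88 ± 0.42 and -0.23 ± 0.36 and did not pass (limma adjusted p = 0.316 and 0.861), and Hsph1 turned to 0.048 without treated replicate 2. Among 7 Nrf2 and glutathione genes 1 rose, 1 fell and 5 did not pass, with a median of -0.77. Over all named genes 10.2% rose and 46.6% fell. Gpx2, a glutathione peroxidase gene, read 13.69, 13.84 and 13.88 at 10 mg/kg against 11.40, 10.50 and 10.75 after saline. Gsta2, a glutathione S-transferase gene, read 17.06, 16.80 and 16.79 at 10 mg/kg against 18.58, 18.38 and 18.43 after saline. Gpx2 rose by 2.92 ± 0.35 and Gsta2 fell by 1.58 ± 0.29 (limma adjusted p = 0.000289 and 0.00429), the fall not passing in the 6-array fit (-1.54, limma adjusted p = 0.0654). Gstk1 stood at -0.91 ± 0.28, Gsr, the glutathione reductase gene, at -1.13 ± 0.47 and Gstt2 at -0.77 ± 0.43 (limma adjusted p = 0.0764, 0.222 and 0.429).

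Of the 15 largest rises 4 lay outside these groups. Olr1, the scavenger receptor gene for oxidized low-density lipoprotein, read 10.64, 11.20 and 11.46 at 10 mg/kg against 5.63, 6.82 and 7.03 after saline and rose by 4.61 ± 0.53 (limma adjusted p = 0.000231). Tmbim1, a membrane protein gene of the Bax inhibitor motif family, read 14.66, 15.06 and 14.95 at 10 mg/kg against 11.32, 11.17 and 10.64 after saline and rose by 3.85 ± 0.30 (limma adjusted p = 8.05e-06). Ces2c, a carboxylesterase gene, read 16.17, 15.91 and 16.00 at 10 mg/kg against 12.66, 12.42 and 12.51 after saline, with little spread in either condition. It rose 11.3-fold (3.49 ± 0.26, limma adjusted p = 7.96e-06). Zfand2a, a zinc-finger gene induced by arsenite and other proteotoxic stress, read 12.46, 13.34 and 13.56 at 10 mg/kg against 9.91, 9.60 and 9.72 after saline and rose by 3.37 ± 0.47 (limma adjusted p = 0.000715). Over all 41 named genes that rose the median was 2.84. No gene among them had overlapping conditions, beside 78.6% of all named genes without overlap, and the 41 were called on these same arrays.

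Carriers that recover filtered solutes were lower in treated tubules. All 8 named amino acid transporter genes fell, with a median of -2.44, where 46.6% of all named genes fell, with a median of -1.28. Slc1a1, the glutamate and aspartate transporter gene, read 11.30, 11.42 and 11.41 at 10 mg/kg against 14.09, 13.81 and 14.01 after saline. Slc6a18, a neutral amino acid transporter gene of the brush border, read 9.64, 7.89 and 9.78 at 10 mg/kg against 12.12, 11.69 and 12.18 after saline. Treated replicate 2 was the lowest array for Slc6a18, while the 3 treated arrays of Slc1a1 were nearly equal. The falls were 2.60 ± 0.34 for Slc1a1, 2.89 ± 0.46 for Slc6a18 and 2.93 ± 0.38 for Slc6a13, a GABA and betaine transporter gene (limma adjusted p = 0.000496, 0.00187 and 0.000477). Slc7a7, which with SLC3A2 exports basic amino acids at the basolateral side, fell by 2.27 ± 0.39, and Slc3a1, the heavy chain of the apical cystine transporter, by 2.15 ± 0.37 (limma adjusted p = 0.00321 and 0.00304). Without treated replicate 2 the difference of Slc6a18 was -2.29. In the 6-array fit Slc3a1 did not pass (-2.12, limma adjusted p = 0.0568).

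Of 4 named organic ion transporter genes of the Slc22 family 3 fell, with a median of -2.43, beside 46.6% and -1.28 over all named genes. Slc22a6 encodes the basolateral organic anion transporter OAT1 and read 14.64, 14.84 and 15.66 at 10 mg/kg against 17.34, 17.27 and 18.14 after saline. Slc22a5 encodes the carnitine transporter OCTN2 and read 13.63, 13.53 and 13.87 at 10 mg/kg against 16.22, 15.71 and 16.06 after saline. Slc22a25 read 9.52, 7.22 and 9.64 at 10 mg/kg against 12.95, 12.75 and 13.43 after saline. All treated arrays lay below all saline arrays in the 3 genes, beside 78.6% of all named genes without overlap. For Slc22a25 replicate 2 lay well below the other treated arrays. The falls were 5.82-fold for Slc22a6 (-2.54 ± 0.40), 4.99-fold for Slc22a5 (-2.32 ± 0.27) and 19.0-fold for Slc22a25 (-4.25 ± 0.53), with limma adjusted p = 0.00162, 0.000273 and 0.000346. Without treated replicate 2 the difference of Slc22a25 was -3.48. Slc22a7, which encodes OAT2, read 6.75, 7.67 and 8.60 at 10 mg/kg against 9.68, 7.67 and 8.30 after saline, with overlapping conditions (limma adjusted p = 0.503).

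Phosphate, sulfate and dicarboxylate carriers fell in 5 of 6 cases, with a median of -1.86, beside 46.6% and -1.28 over all named genes. Slc34a1, the main sodium-phosphate cotransporter gene of the brush border, read 17.79, 17.39 and 17.61 at 10 mg/kg against 19.48, 19.67 and 19.91 after saline, and Slc34a3, a second such gene, read 11.59, 11.73 and 11.89 at 10 mg/kg against 13.22, 13.56 and 14.22 after saline. Slc34a1 fell by 2.09 ± 0.29 and Slc34a3 by 1.93 ± 0.34 (limma adjusted p = 0.000704 and 0.00343). Neither had overlapping conditions, beside 78.6% of all named genes without overlap. Slc13a1, the sulfate transporter gene, fell by 2.18 ± 0.37 (limma adjusted p = 0.0026), and Pdzk1, a scaffold gene that holds apical carriers, by 1.72 ± 0.27 (limma adjusted p = 0.00172). Slc13a3, a dicarboxylate transporter gene, fell by 1.79 ± 0.46 (limma adjusted p = 0.0355). Its call ended without saline replicate 2 (-1.86) or 3 (-1.48) and without treated replicate 1 (-1.44) or 2 (-1.78), at limma adjusted p between 0.0801 and 0.152. In the 6-array fit Slc13a3 (-1.78) and Pdzk1 (-1.71) did not pass, with limma adjusted p = 0.122 and 0.0519. The mitochondrial dicarboxylate carrier gene Slc25a10 stood at -1.36 ± 0.85 (limma adjusted p = 0.506), with treated replicate 2 far below the other arrays.

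Genes of sugar handling fell in 4 of 5 named cases, with a median of -2.02, beside 46.6% and -1.28 over all named genes. Miox, which encodes myo-inositol oxygenase, read 14.78, 14.68 and 15.43 at 10 mg/kg against 17.42, 17.94 and 17.89 after saline and fell by 2.79 ± 0.32 (limma adjusted p = 0.000229). Slc2a5, the fructose transporter gene, fell by 2.02 ± 0.41, Sord, the sorbitol dehydrogenase gene, by 1.64 ± 0.33 and Galm, the aldose epimerase gene, by 1.41 ± 0.34 (limma adjusted p = 0.00854, 0.00888 and 0.0265). The call of Galm was lost without saline replicate 2 (-1.35) or 3 (-1.32) and without treated replicate 2 (-1.07), at limma adjusted p between 0.0860 and 0.106. It was also lost on median-centred (-1.66) and unscaled (-2.05) signals, at limma adjusted p between 0.0665 and 0.0712. In the 6-array fit Slc2a5 (-2.05), Sord (-1.62) and Galm (-1.40) did not pass, at limma adjusted p between 0.0613 and 0.156. Slc5a2, which encodes the glucose cotransporter SGLT2, read 14.90, 14.97 and 14.47 at 10 mg/kg against 16.44, 16.87 and 17.12 after saline. The ranges stood apart, and the difference of -2.03 ± 0.69 missed the threshold in the fit over 15 arrays (limma adjusted p = 0.12) and passed it in the 6-array fit (-1.99, limma adjusted p = 0.0399), on median-centred signals (-2.39, limma adjusted p = 0.0318) and on unscaled ones (-2.78, limma adjusted p = 0.00930).

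Of 4 named genes of bicarbonate, proton and water transport 2 fell, a share near the 46.6% of all named genes. Slc9a3, which encodes the apical sodium-proton exchanger NHE3, read 10.18, 10.56 and 10.77 at 10 mg/kg against 13.17, 13.48 and 13.83 after saline and fell by 2.99 ± 0.49 (limma adjusted p = 0.00224). Slc4a4, the basolateral sodium-bicarbonate cotransporter gene, read 14.11, 14.11 and 14.46 at 10 mg/kg against 15.15, 15.85 and 16.32 after saline and fell by 1.55 ± 0.42 (limma adjusted p = 0.0439). The call of Slc4a4 did not survive leaving out saline replicate 2 (-1.51) or 3 (-1.27) or treated replicate 1 (-1.49), 2 (-1.49) or 3 (-1.67), at limma adjusted p between 0.0781 and 0.180, nor the 6-array fit (-1.52, limma adjusted p = 0.118) or array weights (-1.46, limma adjusted p = 0.0661). The water channel genes Aqp1 and Aqp7 stood at -0.95 ± 0.40 and -0.33 ± 0.34 (limma adjusted p = 0.233 and 0.755), and Aqp7 moved to 0.032 without treated replicate 2.

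The list of apical receptors and peptidases, which also holds the aminoacylase gene Acy1, fell in all 4 named cases. Its median was -2.28, beside 46.6% falling and a median of -1.28 over all named genes. Acy1 is also counted among the other metabolic enzymes below. Cubn encodes cubilin, the receptor that retrieves filtered proteins, and read 10.98, 10.41 and 11.32 at 10 mg/kg against 13.00, 13.23 and 14.24 after saline. Anpep encodes aminopeptidase N of the brush border and read 10.66, 10.55 and 11.19 at 10 mg/kg against 13.20, 13.38 and 14.07 after saline. The highest treated array of each lay below its lowest saline array, beside 78.6% of all named genes without overlap. Cubn fell by 2.58 ± 0.40 and Anpep by 2.75 ± 0.40 (limma adjusted p = 0.00145 and 0.000938). Folr1, the folate receptor gene, fell by 1.69 ± 0.35 and Acy1, an aminoacylase gene, by 1.98 ± 0.40 (limma adjusted p = 0.00967 and 0.00897). Neither Folr1 (-1.68) nor Acy1 (-1.94) passed in the 6-array fit, with limma adjusted p = 0.104 and 0.0703.

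**Figure D4:**
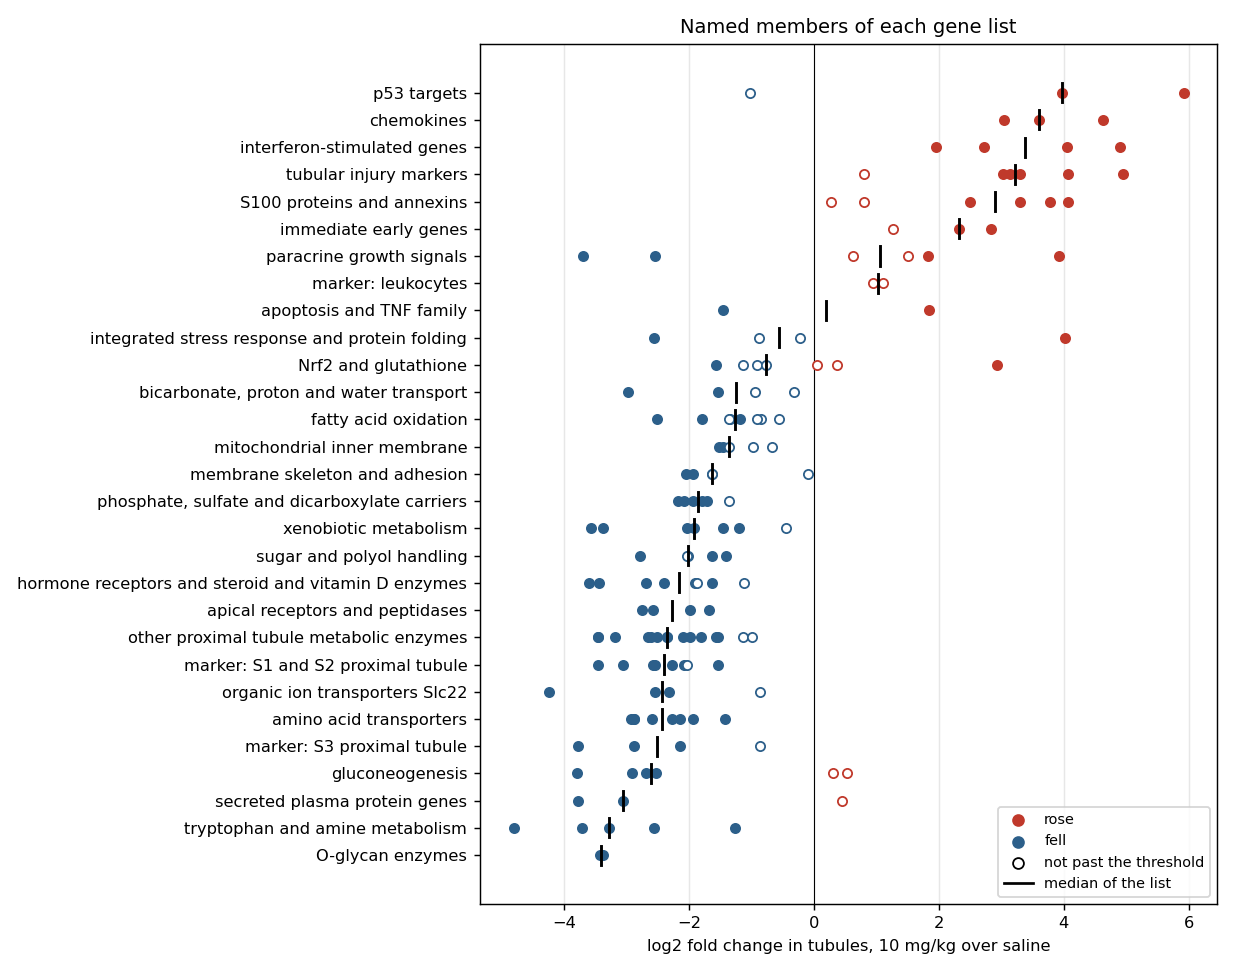
Log2 difference of 10 mg/kg cisplatin minus saline for each named member of the gene lists (points), with the list median as a bar, members past the adjusted p of 0.05 as filled points and the others as open ones. The medians of the injury, interferon, chemokine and S100 lists lie above 0 and those of the transport and metabolism lists below it.

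Of 6 named genes of glucose production 4 fell, with a median of -2.61, beside 46.6% and -1.28 over all named genes. Pc, which encodes pyruvate carboxylase, read 10.82, 10.80 and 11.81 at 10 mg/kg against 14.46, 14.54 and 15.81 after saline. Fbp1, which encodes fructose-1,6-bisphosphatase, read 15.08, 14.01 and 14.76 at 10 mg/kg against 17.37, 17.11 and 16.97 after saline. G6pc1, which encodes the glucose-6-phosphatase catalytic subunit, read 10.79, 8.45 and 10.49 at 10 mg/kg against 12.75, 12.35 and 12.70 after saline. Ranges stood apart in each, as in 78.6% of all named genes. Replicate 2 was the lowest treated array for G6pc1 and Fbp1. Pc fell by 3.79 ± 0.45, Fbp1 by 2.53 ± 0.33 and Slc37a4, which carries glucose-6-phosphate into the endoplasmic reticulum, by 2.91 ± 0.32 (limma adjusted p = 0.000282, 0.000499 and 0.000189). G6pc1 fell by 2.69 ± 0.61 (limma adjusted p = 0.0176), a call lost without saline replicate 1 (-2.59) or 3 (-2.64), without treated replicate 2 (-1.96) and in the 6-array fit (-2.75), at limma adjusted p between 0.0576 and 0.0713. The glycolytic enzyme gene Tpi1 and the glutamate dehydrogenase gene Glud1 stood at 0.52 ± 0.33 and 0.30 ± 0.36 (limma adjusted p = 0.521 and 0.795). On unscaled signals both turned negative, to -0.23 and -0.40, and Glud1 stood at -0.0029 on median-centred signals and at -0.021 in the values of the authors' deposited table.

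Of 8 named genes of fatty acid oxidation 4 fell, with a median of -1.27, beside 46.6% and -1.28 over all named genes, so the group stood where named genes did as a whole. Acsm2, a medium-chain acyl-CoA synthetase gene, read 13.22, 12.86 and 13.34 at 10 mg/kg against 15.41, 15.59 and 16.00 after saline and fell by 2.52 ± 0.28 (limma adjusted p = 0.00017). Amacr, a racemase gene of branched-chain fatty acid breakdown, fell by 1.80 ± 0.29 (limma adjusted p = 0.00212). The peroxisomal thiolase gene Acaa1a fell by 1.19 ± 0.28 and the very long-chain acyl-CoA synthetase gene Slc27a2 by 1.35 ± 0.31 (limma adjusted p = 0.0216 and 0.0178). Acaa1a lost its call without saline replicate 2 (-1.22) or 3 (-1.08) or treated replicate 1 (-1.14) or 3 (-1.16), and Slc27a2 without saline replicate 1 (-1.34) or 3 (-1.18) or treated replicate 1 (-1.26) or 2 (-1.33), at limma adjusted p between 0.0510 and 0.0830. Both also failed on unscaled signals (-1.92 and -2.11, limma adjusted p = 0.0918 and 0.0522) and in the 6-array fit (-1.17 and -1.34, limma adjusted p = 0.144 and 0.121), and Acaa1a on median-centred signals (-1.53, limma adjusted p = 0.0696). Cyp4a8, a fatty acid hydroxylase gene, stood at -1.37 ± 0.49 (limma adjusted p = 0.141). Among 5 named genes of the mitochondrial inner membrane Ndufs1, a complex I subunit gene, fell by 1.53 ± 0.31 beside Aifm1 (limma adjusted p = 0.00905), though not in the 6-array fit (-1.50, limma adjusted p = 0.0971). Ndufv1, another complex I subunit gene, stood at -0.68 ± 0.29 and the transporter gene Abcb10 at -0.98 ± 0.45 (limma adjusted p = 0.237 and 0.297).

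All 5 named genes of tryptophan and amine metabolism fell, with a median of -3.28, beside 46.6% and -1.28 over all named genes. Acmsd, which diverts a tryptophan metabolite away from NAD synthesis, read 10.01, 7.38 and 9.12 at 10 mg/kg against 13.11, 13.92 and 13.93 after saline. Kynu, the kynureninase gene, read 10.54, 9.93 and 9.85 at 10 mg/kg against 13.53, 13.52 and 13.12 after saline. Hnmt, which methylates histamine, read 7.39, 9.16 and 8.02 at 10 mg/kg against 13.15, 10.81 and 11.77 after saline. Acmsd was lowest in treated replicate 2 and Hnmt in treated replicate 1. No conditions overlapped, beside 78.6% of all named genes without overlap. Acmsd fell 28.1-fold (-4.81 ± 0.59, limma adjusted p = 0.000311), Kynu 9.74-fold (-3.28 ± 0.30, limma adjusted p = 4.81e-05) and Hnmt 13.2-fold (-3.72 ± 0.67, limma adjusted p = 0.00423). The difference was -4.10 for Acmsd without treated replicate 2 and -3.07 for Hnmt without saline replicate 1. Ddc, which makes dopamine in the tubule, fell by 2.57 ± 0.48 and Qprt, an enzyme gene of NAD synthesis, by 1.26 ± 0.27 (limma adjusted p = 0.00511 and 0.0133). Qprt lost its call without saline replicate 3 (-1.21, limma adjusted p = 0.0510) or treated replicate 2 (-1.18, limma adjusted p = 0.0523), on median-centred (-1.51) and unscaled signals (-1.90), at limma adjusted p of 0.0825 and 0.0974, and in the 6-array fit (-1.25, limma adjusted p = 0.122).

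Of 15 other metabolic enzymes of the proximal tubule 13 fell, with a median of -2.36, beside 46.6% and -1.28 over all named genes. Glyat, which conjugates glycine to acyl groups, read 13.50, 12.48 and 13.06 at 10 mg/kg against 16.45, 16.66 and 16.33 after saline. Gatm, the amidinotransferase gene of creatine synthesis, read 13.62, 12.45 and 13.21 at 10 mg/kg against 15.62, 16.74 and 17.32 after saline. Hao2, a peroxisomal hydroxyacid oxidase gene, read 16.44, 16.23 and 16.67 at 10 mg/kg against 18.86, 19.30 and 19.14 after saline. In all 3 the highest treated array lay well below the lowest saline array, beside 78.6% of all named genes without overlap. Glyat fell by 3.47 ± 0.30, Gatm by 3.46 ± 0.47 and Hao2 by 2.66 ± 0.28 (limma adjusted p = 2.17e-05, 0.000627 and 0.000133). Dpys and Upb1, which act in turn in pyrimidine breakdown, fell by 2.61 ± 0.29 and 2.36 ± 0.30 (limma adjusted p = 0.000191 and 0.000443). Rgn, which encodes the calcium-binding lactonase regucalcin, fell by 3.63 ± 0.48 (limma adjusted p = 0.000553).

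Of 7 named genes of xenobiotic metabolism 6 fell, with a median of -1.92, beside 46.6% and -1.28 over all named genes. The flavin monooxygenase gene Fmo1 read 16.07, 15.75 and 15.61 at 10 mg/kg against 17.86, 17.59 and 18.08 after saline, and Fmo4 read 8.97, 7.23 and 8.82 at 10 mg/kg against 11.99, 11.49 and 11.68 after saline. The falls were 2.03 ± 0.28 for Fmo1, 3.38 ± 0.43 for Fmo4 and 1.46 ± 0.31 for Fmo2 (limma adjusted p = 0.000764, 0.000414 and 0.0106). Fmo2 did not pass without treated replicate 2 (-1.24, limma adjusted p = 0.0502), on unscaled signals (-2.07, limma adjusted p = 0.0552) or in the 6-array fit (-1.50, limma adjusted p = 0.0939). The esterase gene Aadac fell by 3.57 ± 0.57 and the sulfotransferase gene Sult1c2 by 1.92 ± 0.34 (limma adjusted p = 0.00187 and 0.00378). Ces2c, the carboxylesterase gene, moved the other way from Aadac, as given above.

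Of 8 named genes for hormone receptors and steroid and vitamin D enzymes 6 fell, with a median of -2.16. Over all named genes 46.6% fell, with a median of -1.28. Thrb, the thyroid hormone receptor beta gene, read 7.15, 7.04 and 5.85 at 10 mg/kg against 10.11, 10.14 and 10.58 after saline. Dio1, the deiodinase gene that activates thyroid hormone, read 11.55, 11.18 and 11.32 at 10 mg/kg against 14.66, 14.78 and 14.95 after saline. Pth1r, the parathyroid hormone receptor gene, read 12.09, 12.43 and 13.14 at 10 mg/kg against 14.68, 15.26 and 15.83 after saline. In each the treated arrays were below all saline arrays, beside 78.6% of all named genes without overlap. For Dio1 both conditions were tight. Thrb fell by 3.60 ± 0.42, Dio1 by 3.45 ± 0.29 and Pth1r by 2.70 ± 0.37 (limma adjusted p = 0.00028, 2.1e-05 and 0.000725). Hsd11b1, which regenerates active glucocorticoid, fell by 1.63 ± 0.27 and the angiotensin II receptor gene Agtr1a by 2.41 ± 0.51 (limma adjusted p = 0.0023 and 0.0121). Agtr1a lost its call without saline replicate 3 (-2.34, limma adjusted p = 0.0502), and in the 6-array fit Hsd11b1 (-1.60) and Agtr1a (-2.48) did not pass, with limma adjusted p = 0.0550 and 0.0649. The glucocorticoid receptor gene Nr3c1 stood at -1.12 ± 0.31 (limma adjusted p = 0.0505).

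Genes of secreted and glycosylated proteins, adhesion and the membrane skeleton fell in part. Gc, which encodes the vitamin D binding protein, read 5.65, 6.24 and 7.25 at 10 mg/kg against 12.02, 9.29 and 9.18 after saline, and Spp2, which encodes a secreted phosphoprotein, read 12.42, 11.84 and 12.43 at 10 mg/kg against 14.79, 15.77 and 15.32 after saline. Saline replicate 1 was the highest array for Gc and the lowest saline array for Spp2. Gc fell by 3.78 ± 0.80 and Spp2 by 3.06 ± 0.38 (limma adjusted p = 0.0115 and 0.000336), and Tf, the transferrin gene, stood at 0.45 ± 0.46 (limma adjusted p = 0.743) and turned to -0.14 on unscaled signals. Gc did not pass without treated replicate 1 (-3.39, limma adjusted p = 0.0514) or in the 6-array fit (-3.91, limma adjusted p = 0.0510), and stood at -2.80 without saline replicate 1. The O-glycan enzyme genes Galnt11 and St6galnac3 fell by 3.39 ± 0.53 and 3.43 ± 0.66 (limma adjusted p = 0.00167 and 0.00646), with Galnt11 at -2.70 without treated replicate 2 and St6galnac3 at -2.76 without treated replicate 3. The cadherin genes Cdh2 and Cdh16 fell by 1.93 ± 0.35 and 1.64 ± 0.31 and the adducin gene Add3 by 2.05 ± 0.45 (limma adjusted p = 0.00429, 0.00574 and 0.0154). Cdh16 did not pass in the 6-array fit (-1.61, limma adjusted p = 0.0918), nor Add3 without saline replicate 3 (-2.01, limma adjusted p = 0.0565) or treated replicate 2 (-1.87, limma adjusted p = 0.0706). Epb41l3 stood at -1.64 ± 0.63 and the actinin gene Actn4 at -0.10 ± 0.74 (limma adjusted p = 0.184 and 0.974). Epb41l3 passed on unscaled signals (-2.33, limma adjusted p = 0.0416), and Actn4 turned to 0.12 with array weights, 0.66 without saline replicate 3, 0.20 without treated replicate 1 and 0.19 without treated replicate 2.

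The promoters of the genes that fell were read for the core of the HNF1 motif, which binds factors that maintain tubule and liver gene expression. The core, GTTAAT followed after 2 bases of any kind by TT on either strand, lay in 4 of 154 such promoters, or 2.60%, against none of the 35 that rose, 0.714% of those that did neither and 0.819% of all promoters. The 4 genes were Gc, Anpep, G6pc1 and Slc7a12, an amino acid transporter gene whose fall was -2.88 ± 0.59 (limma adjusted p = 0.00916, and 0.0715 in the 6-array fit, at -2.97). Without saline replicate 1 it stood at -2.18. Hnf4a, which encodes a factor of the same gene programme, was picked out after its values were seen. It read 8.71, 5.36 and 9.41 at 10 mg/kg against 9.64, 10.06 and 12.22 after saline, with no overlap and treated replicate 2 far below the others, and its difference of -2.81 ± 0.93 did not pass (limma adjusted p = 0.107). The first 3 promoters are given 5′ to 3′ on the strand of the gene, with the HNF1 core in capitals, to show where it lies.
Gc, chr14:18916005-18916254 (GRCr8, plus strand): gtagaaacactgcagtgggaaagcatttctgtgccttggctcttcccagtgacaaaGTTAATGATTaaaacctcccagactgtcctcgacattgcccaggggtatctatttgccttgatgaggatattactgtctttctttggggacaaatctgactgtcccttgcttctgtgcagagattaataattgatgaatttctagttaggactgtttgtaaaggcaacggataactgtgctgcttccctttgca
Anpep, chr1:143195102-143195351 (GRCr8, minus strand): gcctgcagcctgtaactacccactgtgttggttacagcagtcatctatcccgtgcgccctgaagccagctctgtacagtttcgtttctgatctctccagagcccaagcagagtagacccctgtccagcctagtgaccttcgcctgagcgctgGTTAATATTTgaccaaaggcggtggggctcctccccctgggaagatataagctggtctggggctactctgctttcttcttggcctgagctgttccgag
G6pc1, chr10:86807409-86807658 (GRCr8, plus strand): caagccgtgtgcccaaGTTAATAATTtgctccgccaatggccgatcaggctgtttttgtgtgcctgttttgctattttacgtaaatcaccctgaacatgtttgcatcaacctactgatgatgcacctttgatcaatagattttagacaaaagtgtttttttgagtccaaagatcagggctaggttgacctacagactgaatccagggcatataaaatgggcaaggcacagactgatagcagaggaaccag

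Named markers of the proximal tubule were read in every array. Among markers of the early segments, S1 and S2, 8 were named, and in the treated tubules 7 of them fell, with a median of -2.41. Of the S3 markers 4 were named and 3 fell, with a median of -2.51. Over all named genes 46.6% fell, with a median of -1.28. Slc34a1 and Slc5a2, defining genes of the early segments, read at least 14.47 in each treated array and at least 16.44 in each saline one. Slc22a7, an S3 marker, read 6.75, 7.67 and 8.60 at 10 mg/kg against 9.68, 7.67 and 8.30 after saline. The loop and distal tubule, collecting duct, glomerulus, endothelium, stroma and erythroid lists had no named probe, so their part in these changes was not tested.

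Values beside the threshold show how fine the line is. Ptk2, the focal adhesion kinase gene, read 11.03, 11.23 and 11.74 at 10 mg/kg against 12.31, 12.31 and 12.52 after saline and just missed (-1.05 ± 0.29, limma adjusted p = 0.0504), together with Nr3c1 and Cd82. Chdh, the choline dehydrogenase gene, read 9.16, 5.93 and 10.12 at 10 mg/kg against 11.65, 11.18 and 11.94 after saline and just passed (-3.19 ± 0.87, limma adjusted p = 0.0467). Ctsa, which encodes a lysosomal carboxypeptidase, and Tmem150a, a membrane protein gene, just passed too, at -1.42 ± 0.39 and -1.09 ± 0.30 (limma adjusted p = 0.0468 and 0.0478). Leaving out arrays ended these 3 calls: that of Chdh in each case except treated replicate 3 (values between -3.55 and -1.96, the smallest fall without treated replicate 2, limma adjusted p between 0.0634 and 0.150), and those of Ctsa and Tmem150a in each case except saline replicate 1 (between -1.59 and -0.94, limma adjusted p between 0.0618 and 0.197). Without treated replicate 3 Chdh stood at -4.05. The 6-array fit ended the calls of Chdh (-3.29), Ctsa (-1.40) and Tmem150a (-1.09) as well, at limma adjusted p between 0.145 and 0.213. Tmem150a also failed on median-centred (-1.35, limma adjusted p = 0.131) and unscaled signals (-1.74, limma adjusted p = 0.139). Ctsa failed with array weights (-1.37, limma adjusted p = 0.0506). Other settings gained calls. Array weights passed Ptk2 (-1.05, limma adjusted p = 0.0423) and Nr3c1 (-1.11, limma adjusted p = 0.0425), Ptk2 passed without treated replicate 3 (-1.25, limma adjusted p = 0.0417) and Cd82 without saline replicate 1 (-1.21, limma adjusted p = 0.0417). Without the dimmest of 4 groups of probes Cd82, Ptk2, Nr3c1, Ier3 and Gstk1 passed, at limma adjusted p between 0.0256 and 0.0391, and all of these but Gstk1 passed among probes with all values, at limma adjusted p between 0.0339 and 0.0478. With the ratio values of the authors' deposited table, where p is adjusted over its 1219 probes, Cd82, Ptk2, Nr3c1, Slc5a2, Aqp1, Epb41l3, Cyp4a8, Ndufv1, Abcb10, Gstk1, Gsr, Nrg1 and Tnfsf13 passed, at limma adjusted p between 0.000616 and 0.0255. Over all named genes 18 of the 41 rises and 73 of the 187 falls passed under each alternative that gave them a value.

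The direct comparison of 10 with 2 mg/kg asked whether these genes differ between doses. It uses no saline array but the same 3 arrays at 10 mg/kg, in which the genes were called, so its values for them are no independent support. It called 1711 of the 26601 probes, 6.43%, with 707 higher (2.66%) and 1004 lower (3.77%) at 10 mg/kg. Of all named genes 61.1% differed, 10.5% higher and 50.6% lower. Havcr1 read 13.82, 13.34 and 14.00 at 10 mg/kg against 9.12, 9.34 and 9.64 at 2 mg/kg, and Plk2 read 14.40, 14.36 and 14.71 at 10 mg/kg against 10.45, 10.94 and 11.07 at 2 mg/kg. Havcr1 was higher at 10 mg/kg by 4.36 ± 0.41 and Plk2 by 3.67 ± 0.56 (limma adjusted p = 4.3e-05 and 0.00128). Acmsd read 10.01, 7.38 and 9.12 at 10 mg/kg against 14.77, 14.77 and 13.96 at 2 mg/kg and Glyat read 13.50, 12.48 and 13.06 at 10 mg/kg against 16.59, 16.51 and 16.62 at 2 mg/kg. Both were lower at 10 mg/kg, Acmsd by -5.66 ± 0.59 and Glyat by -3.56 ± 0.30 (limma adjusted p = 9.5e-05 and 2.32e-05). Relative to the same saline arrays, the medians of the 41 named genes that rose and the 187 that fell at 2 mg/kg were -0.07 and 0.12, beside 2.84 and -2.06 at 10 mg/kg. The count between doses moved to 949 without 2 mg/kg replicate 1 and to 954 without 2 mg/kg replicate 2.

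**Figure D5:**
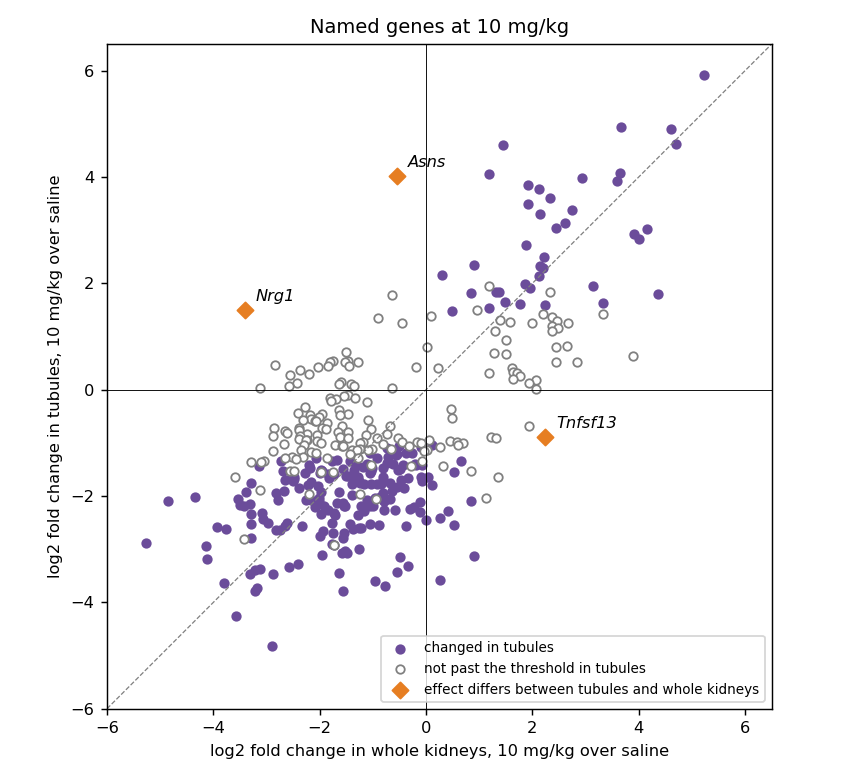
Log2 difference of 10 mg/kg cisplatin minus saline in proximal tubules (vertical axis) and in whole kidneys (horizontal axis) for the named genes, with genes changed in tubules as filled points, others as open points and equal differences along the dashed line. Of the 228 genes changed in tubules 0 were called in opposite directions in the 2 tissues. Diamonds mark Asns, Nrg1 and Tnfsf13, whose differences were called unequal, and Asns is among the 228.

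Whole kidneys at 10 mg/kg share no array with the tubules, and 6.45% of probes were called in them, 2.93% higher and 3.53% lower. Of all named genes 60.3% were called, 14% higher and 46.4% lower. Of the 41 named genes that rose in tubules 33 also rose in whole kidneys and 0 fell, and of the 187 that fell 109 also fell and 0 rose. Whole kidneys had 56 named genes that rose and 186 that fell. The 41 and 187 genes called in tubules had median differences in whole kidneys of 2.14 and -1.49. In tubules, where these genes were chosen by their values, the medians were 2.84 and -2.06. The test of the difference between the tissues called 10 of 26601 probes, 0.0376%, of which 3 were named, 0.748% of named genes. Asns rose in tubules as given above, and in whole kidneys it read 7.66, 7.54 and 6.47 at 10 mg/kg against 8.26, 6.97 and 8.08 after saline. Nrg1 read 11.69, 10.60 and 11.55 in tubules at 10 mg/kg against 10.15, 10.23 and 8.97 after saline, and 6.94, 6.75 and 8.18 in whole kidneys at 10 mg/kg against 10.38, 10.39 and 11.34 after saline. Tnfsf13, a ligand gene of the tumour necrosis factor family, read 12.17, 12.22 and 12.62 in tubules at 10 mg/kg against 13.11, 13.28 and 13.30 after saline, and 14.27, 13.25 and 13.48 in whole kidneys at 10 mg/kg against 11.59, 11.27 and 11.42 after saline. The tubule difference exceeded that of whole kidneys by 4.57 ± 0.64 for Asns and 4.91 ± 0.70 for Nrg1 and was -3.14 ± 0.46 relative to it for Tnfsf13 (limma adjusted p = 0.028, 0.028 and 0.0313). With 1 of the 12 arrays left out in turn, Asns and Nrg1 each passed in 3 of 12 fits and Tnfsf13 in 1. Asns passed without whole kidney saline replicate 2 and without whole kidney 10 mg/kg replicate 1 or 2, Nrg1 without tubule 10 mg/kg replicate 2 and without whole kidney 10 mg/kg replicate 2 or 3, and Tnfsf13 without whole kidney 10 mg/kg replicate 2. Across these fits Asns ranged between 4.22 and 4.99, Nrg1 between 4.50 and 5.39 and Tnfsf13 between -3.34 and -2.85, at limma adjusted p up to 0.105, 0.103 and 0.117. In a fit of these 12 arrays alone limma called 0 probes, with 2544 at an unadjusted p under 0.05.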

How the data were processed

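Each array file deposited by the authors holds 1 linear signal intensity per probe, per the file headers, and the scanner software, background correction and spot filter are not given in the sources used here. Another table of 1219 probes deposited by the authors holds each intensity as a ratio to 1 constant per array, checked against the array files. Log2 intensities of the 15 arrays were quantile normalized in limma 3.58.1 (R 4.3.3), with no background correction and no filter on dim probes, since no background or detection column was present. The 26601 of 26857 probes listed at least 2 times in every group entered the test, and 256 did not. Group means were fitted over all 15 arrays with lmFit and eBayes (10 residual and 3.92 prior degrees of freedom), two-sided. Adjusted p-values (Benjamini-Hochberg, over the whole array) under 0.05 were called. The same fit tested 10 against 2 mg/kg and the tubule minus the whole kidney difference. Errors of differences are standard errors of the fit, and 3 arrays a group limit the precision. The fit was tested on simulated data with independent normal noise in each probe. That test left out the scaling step, so it does not bear on the normalization.

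Symbols came from the platform annotation: 401 probes had 1 symbol, all matched to RefSeq genes with 0 updated, 2 had several and 26454 had none. The 37 lists hold 730 genes, of which 136 had a named probe, and 7 lists had none. The comparison, the lists and the naming rule were chosen with earlier results of these data known. Genes were named as the 15 largest rises and 15 largest falls without overlapping arrays, up to 5 members of smallest p in each list and all members of lists with at most 6 named, the genes whose effect differed from whole kidneys, and 3 on each side of the threshold, which gave 126 genes. Lists were described by counts and medians. Motifs were searched on both strands of RefSeq promoter sequences, assembly GRCr8, 1 promoter per gene. Replicate numbers were checked as pairs: same-numbered 10 mg/kg and saline arrays deviated together with correlations of 0.07, -0.08 and 0.13 over probes. They were not treated as pairs in the main fit, though these correlations cannot exclude pairing. Alternatives were median centring, no scaling, the compared arrays alone, probes with all values, the probes without the dimmest of 4 groups, array weights, a replicate block, the deposited ratio values and leaving out each array.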

Additional observations from a re-analysis of the deposited data

Results flagged for a closer look

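For 3 named genes the effect of 10 mg/kg in tubules differed from that in whole kidneys by a test of the difference itself. The limma interaction was 4.57 for Asns, 4.91 for Nrg1 and -3.14 for Tnfsf13, each the log2 tubule difference minus the whole kidney difference. Asns stood at 4.02 in tubules and -0.55 in whole kidneys, Nrg1 at 1.50 in tubules and -3.41 in whole kidneys, and Tnfsf13 at -0.90 in tubules and 2.24 in whole kidneys. The direction of each interaction was the same in every alternative fit, with ranges of 4.22 to 4.99 for Asns, 4.07 to 5.39 for Nrg1 and -3.55 to -2.85 for Tnfsf13. The calls were not: of 8 fits other than those that left out 1 array, Asns passed in 5, Nrg1 in 4 and Tnfsf13 in 4, and none of the 3 passed on unscaled signals (limma adjusted p between 0.0912 and 0.221).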

How the results depend on the processing

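Counts of called probes moved with the scaling and with the arrays in the fit. The tubule comparison called 1553 probes in the limma fit, 917 on unscaled signals, 592 with the 6 arrays alone, 967 of 1219 with the deposited ratio values, and between 953 (without saline replicate 3) and 1173 with 1 array left out. The comparison of doses called 1711, then 1010 on unscaled signals, 998 with its 6 arrays alone, 3395 with array weights, 956 with the deposited ratio values and between 949 and 1433 with 1 array left out. The difference between tissues called 10, then 2 with median centring, 2 on unscaled signals, 0 with its 12 arrays alone, 29 without the dimmest of 4 equal groups of probes, 16 with array weights, 0 with a replicate block, 176 with the deposited ratio values and between 0 and 15 with 1 array left out. The 5 limma fits with 0 calls, among them those without saline tubule replicate 2, tubule 10 mg/kg replicate 3 or saline whole kidney replicate 1, had between 2544 and 2919 probes at an unadjusted p under 0.05. The replicate block gave 1257 probes in the tubule comparison, 525 higher and 732 lower, and 1447 between doses. It ended the calls of 7 named genes, Egr2, Slc13a3, Slc4a4, Galm, Chdh, Ctsa and Tmem150a, at limma adjusted p between 0.0504 and 0.0792. Whether the replicate numbers pair the arrays is not known. Of the 97 genes named in the text by rule and called, 61 passed in all 14 alternatives that gave them a value and 36 did not in at least 1. Uncalled genes that changed sign were S100a4 (-0.32 unscaled, -0.18 to 0.65 with 1 array left out), Aqp7 (-0.53 to 0.032), Hsph1 (-0.41 to 0.048), Actn4 (0.12 with array weights, -0.70 to 0.66), Tpi1 (-0.23 unscaled), Glud1 (-0.0029 with median centring, -0.40 unscaled, -0.021 with the deposited ratio values) and Tf (-0.14 unscaled). The cause of these moves was not tested. Some alternatives hold fewer arrays or probes, while median centring, unscaled signals, array weights and the replicate block use the same ones. Of the dimmest group of probes 0.346% passed, against 16.6% of the brightest, and the cause of that difference was not tested.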
